A study of Mus musculus with 8 samples.

Results

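Histone genes were examined in lenses of mouse embryos that carried a dominant-negative form of the chromatin remodeler Brg1, against wild type littermates. A probe set was counted as a histone member when the platform annotation assigned it to 1 gene alone and that gene's symbol marks a core histone, a linker histone or a histone variant. This rule took 23 probe sets of 17 genes, out of 22626 probe sets tested, of which 20380 name 1 gene. It used gene names only and no measured value. A further 22 histone probe sets name several genes at once and were described separately, because the nearly identical histone genes of the chromosomal clusters cannot be told apart by them.

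Whole lenses were taken at embryonic day 15.5 from dnBrg1 and wild type embryos. RNA of 4 samples of each was hybridized to Affymetrix 3′ expression arrays after amplification from 50 ng of total RNA. The sources used here do not say whether a sample came from 1 embryo or from a pool, and each sample is called a lens below. dnBrg1 embryos carried a transgene in which the αA-crystallin (Cryaa) promoter drives an epitope-tagged Brg1 with a mutated ATPase domain in lens fiber cells, and the endogenous gene was left intact. The labels give a mixed background for all samples, whereas the study's methods describe injection of the transgene into FVB/N oocytes, and which applies to these embryos is not settled by the sources used here. The transgene was carried by 1 founder line. Total RNA is given as the molecule of all 8 samples. In the free text, however, 6 of them (dnBrg1 replicates 1 and 2 and every wild type sample) are described as polysome bound, and dnBrg1 replicates 3 and 4 are not. The labels do not say whether samples came from separate litters, so p-values measure the spread between these samples. Because whole lenses were profiled, fewer cells of a type and less RNA per cell cannot be told apart.

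Histones package DNA. The core histones H2A, H2B, H3 and H4 form the nucleosome, and linker histone H1 binds where DNA enters and leaves it. Most are encoded by replication-dependent genes clustered on a few chromosomes, which are transcribed in S phase and whose mRNAs end in a stem-loop instead of a poly(A) tail. Replacement variants such as H3.3, H2A.Z and H2A.J are encoded by separate genes with polyadenylated mRNAs and are also made outside S phase. In the lens, dividing epithelial cells supply fiber cells, which leave the cell cycle, elongate, and later lose their nuclei. Brg1 is the ATPase of a SWI/SNF complex, which moves and evicts nucleosomes.

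The promoters of 4 replacement variants and 1 cluster gene are shown because these genes carried large changes or, for the H2A.Z pair and the probe sets of H1f2, changes in opposite directions. They are RefSeq sequences of build GRCm38.p6, each covering the 200 bases before the annotated start site, written in the direction of transcription, with every CCAAT match on either strand (CCAAT or its complement ATTGG) in capitals. The H1f10 window lies at chr6:87981483-87981682 on the minus strand, that of H2aj at chr6:136808048-136808247 on the plus strand, that of H2az1 at chr3:137864287-137864486 on the plus strand, that of H2az2 at chr11:6444444-6444643 on the minus strand and that of H1f2 at chr13:23738607-23738806 on the plus strand.
H1f10: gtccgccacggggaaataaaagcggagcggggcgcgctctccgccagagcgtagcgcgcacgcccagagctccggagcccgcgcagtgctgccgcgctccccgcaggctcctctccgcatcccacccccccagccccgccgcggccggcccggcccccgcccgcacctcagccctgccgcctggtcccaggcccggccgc
H2aj: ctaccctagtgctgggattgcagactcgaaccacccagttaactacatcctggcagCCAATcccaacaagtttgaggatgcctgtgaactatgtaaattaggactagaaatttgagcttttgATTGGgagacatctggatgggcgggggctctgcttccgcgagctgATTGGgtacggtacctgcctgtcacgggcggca
H2az1: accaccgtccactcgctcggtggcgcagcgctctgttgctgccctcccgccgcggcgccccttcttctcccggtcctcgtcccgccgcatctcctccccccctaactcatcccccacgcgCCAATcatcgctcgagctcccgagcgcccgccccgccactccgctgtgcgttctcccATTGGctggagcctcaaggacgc
H2az2: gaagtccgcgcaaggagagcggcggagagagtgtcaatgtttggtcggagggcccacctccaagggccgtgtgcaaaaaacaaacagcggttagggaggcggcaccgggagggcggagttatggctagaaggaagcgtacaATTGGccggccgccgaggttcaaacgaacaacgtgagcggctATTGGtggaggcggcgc
H1f2: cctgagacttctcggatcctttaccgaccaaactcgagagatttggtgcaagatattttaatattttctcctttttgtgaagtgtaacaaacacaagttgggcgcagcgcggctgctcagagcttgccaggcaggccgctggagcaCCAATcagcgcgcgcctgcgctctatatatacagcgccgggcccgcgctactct

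A promoter was found for 15 of the 17 genes. CCAAT was present on either strand of 13 of these 15 windows, while it was present in 29.3% of all 32851 RefSeq promoter windows of the same length. The GC box letters GGGCGG were present in 7 of 15 windows, against 31.0% of all windows, and the TATA letters TATAAA were present in 2 of 15, against 3272 of the 32851. The letters AAACACA, the H1 box known from linker histone genes, were present in 3 of 15 windows, those of H1f2, H1f4 and H1f6, against 4.8% of all windows. The H1f10 window held no CCAAT match and 1 GGGCGG match, the H2aj window held 3 CCAAT matches, and the windows of H2az1 and H2az2 held 2 each. Both strands were searched, and no match of one motif overlapped a match of another in the 15 windows. A match describes the letters of the window and was not tested as a binding site.

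Histone probe sets moved in both directions in dnBrg1 lenses. H1f10 and H2aj were lower and H2ax was higher by 3-fold or more. H2az1 and H2az2, which encode nearly the same H2A.Z protein, differed in direction on the probe sets that name 1 gene. Of the 23 probe sets, 4 were called higher and 8 lower at a Benjamini-Hochberg adjusted p under 0.05 (limma, over all 22626 probe sets), and 11 were not called. Over all probe sets 40.8% were called, 19.8% higher and 21.0% lower, so 12 of 23 was not far from the background and was not read as a result about histone genes as a group. The median difference of the 23 was -0.26 on the log2 scale, against -0.08 for all probe sets. Groups did not overlap for 10 of 23, against 40.1% of all probe sets. Where 1 probe set per gene was taken, the brightest, 3 of 17 genes were higher and 5 lower, against 17.5% and 23.3% of all 12393 genes.

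Of 8 variant probe sets, 2 were higher and 5 lower, so that 7 of 8 were called. Of 11 probe sets of replication-dependent genes, 2 were higher and 3 lower, and none of the 4 probe sets of germline genes was called. A probe set was termed bright when its mean over the 8 arrays was at or above the median of all probe sets (7.69 on the log2 scale), and 12 of the 23 were bright, of which 2 were higher and 7 lower, against 53.5% of all bright probe sets called in either direction. Of the 11 dim probe sets, 2 were higher and 1 lower, against 28.1% of all dim probe sets called. Of the 8 variant probe sets 7 were bright, so the share called among variants stands beside the share of all bright probe sets. Variant and cluster genes were not compared with each other by a test.

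**Figure D1:**
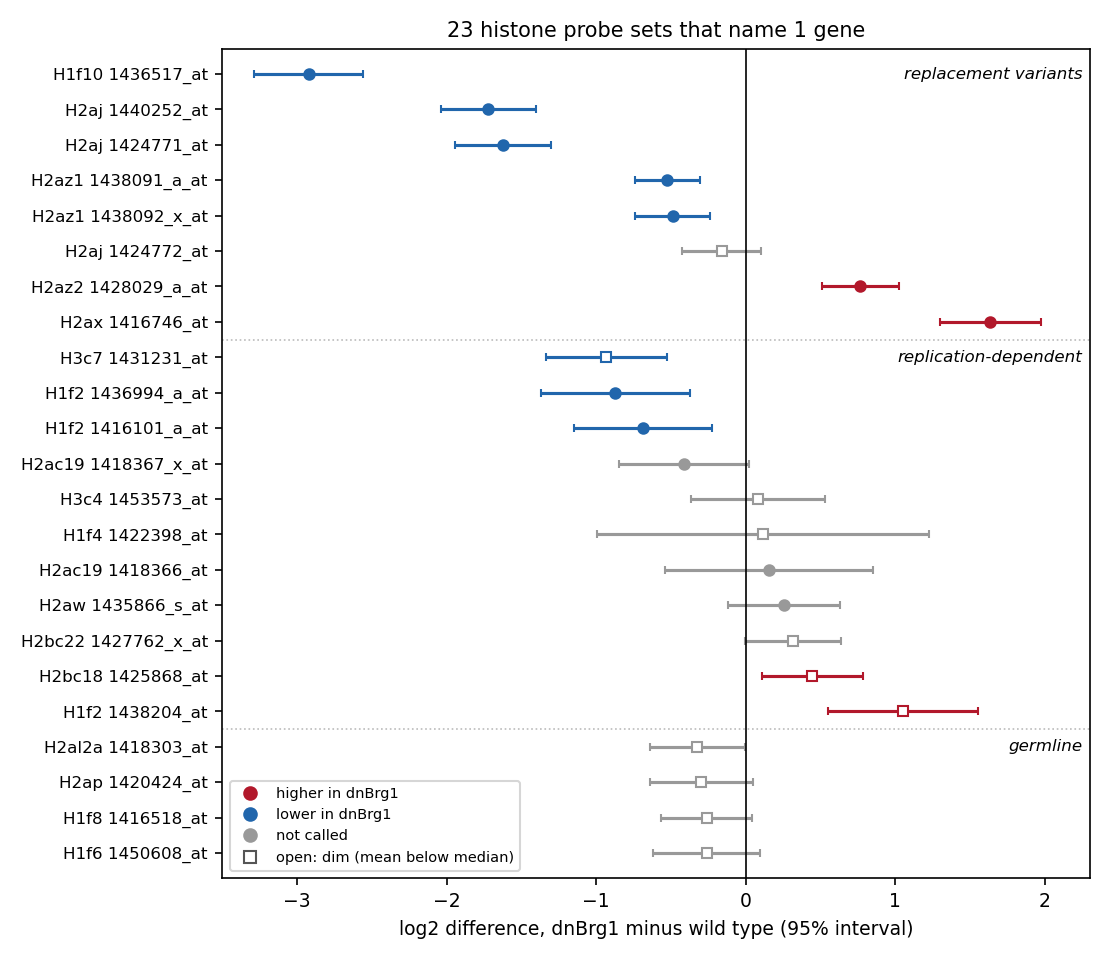
Difference of each of the 23 histone probe sets that name 1 gene, on the log2 scale (dnBrg1 minus wild type), with its 95% interval from limma, 4 samples in each group. Red marks probe sets higher and blue those lower in dnBrg1 lenses at an adjusted p under 0.05, grey those not called, and open squares dim probe sets. Histone variants hold both ends of the range, -2.92 for H1f10 and 1.64 for H2ax, whose mRNA can also be made in a stem-loop form.

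The linker histone variant H1f10 (formerly H1fx, human H1.10), a polyadenylated H1 that is also made in cells that do not divide, was lower in every dnBrg1 lens. Its probe set 1436517_at had log2 intensities of 7.20, 7.08, 7.56 and 7.34 in dnBrg1 lenses, against 10.10, 10.60, 9.95 and 10.23 in wild type lenses. All dnBrg1 values thus lay below all wild type values, with a gap much wider than the spread within either group (7.29 ± 0.21 in dnBrg1 lenses and 10.22 ± 0.28 in wild type lenses, SD, n = 4 each). The difference was -2.92 ± 0.16 (SE), 7.59-fold lower (adjusted p = 9.65e-06). H1f10 lies on chromosome 6.

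H2aj (formerly H2afj), which encodes the mammalian variant H2A.J, was lower by both of its bright probe sets. Probe set 1424771_at had values of 10.96, 10.97, 11.37 and 11.35 in dnBrg1 lenses, against 12.92, 12.55, 12.94 and 12.74 in wild type lenses, a difference of -1.62 ± 0.14 (3.08-fold lower, adjusted p = 4.47e-05). Probe set 1440252_at had 8.03, 8.46, 8.08 and 8.07 in dnBrg1 lenses, against 9.60, 10.04, 9.87 and 10.01 in wild type lenses, a difference of -1.72 ± 0.14 (3.297-fold lower, adjusted p = 3.09e-05). In neither did the groups overlap, and the estimates from these probe sets differed by less than 1 SE. The third probe set, 1424772_at, was dim, at 5.54 ± 0.12 in dnBrg1 lenses and 5.70 ± 0.17 in wild type lenses, and its difference of -0.16 did not pass the test (95% interval -0.43 to 0.10, adjusted p = 0.301). Its interval leaves out the size seen with the other probe sets.

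H2ax (formerly H2afx) encodes H2A.X, the H2A that is phosphorylated around DNA double-strand breaks, and its mRNA can be made in a stem-loop or a polyadenylated form. Its probe set 1416746_at had values of 10.72, 10.43, 10.98 and 10.33 in dnBrg1 lenses, against 8.88, 9.12, 8.91 and 9.02 in wild type lenses. The lowest dnBrg1 lens was more than 1 log2 unit above the highest wild type lens. The difference was 1.64 ± 0.15, 3.11-fold higher (adjusted p = 5.48e-05). It was the largest increase among the histone members. The array measured mRNA, so phosphorylated H2A.X was not measured.

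H2A.Z, which is placed in nucleosomes near promoters by its own remodelers, is encoded by 2 genes, and their probe sets moved in opposite directions. H2az1 (formerly H2afz) probe set 1438091_a_at had values of 12.84, 12.75, 12.88 and 12.68 in dnBrg1 lenses, against 13.30, 13.30, 13.21 and 13.44 in wild type lenses, and differed by -0.52 ± 0.10 (1.44-fold lower, adjusted p = 0.00229). Its second probe set, 1438092_x_at, differed by -0.49 ± 0.11 (adjusted p = 0.00712). H2az2 (formerly H2afv) probe set 1428029_a_at had values of 12.53, 12.37, 12.75 and 12.34 in dnBrg1 lenses, against 11.65, 11.80, 11.73 and 11.75 in wild type lenses. H2az2 was thus higher by 0.76 ± 0.11 (1.70-fold, adjusted p = 0.000681), and the groups overlapped in none of these 3 probe sets.

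The difference between the H2az2 and H2az1 values on each array, taken with 1438091_a_at, was -0.31, -0.39, -0.13 and -0.34 in dnBrg1 lenses, against -1.65, -1.51, -1.48 and -1.68 in wild type lenses. It shows unequal change of the probe sets, 1.29 on the log2 scale, and not the ratio of the mRNAs, since brightness also depends on the probes. This pair was chosen after its values were seen, so these values are a description. A pair of further probe sets names H2az1 together with the gene model Gm8203, and they did not move alike: 1456032_x_at differed by -0.37 ± 0.11 (adjusted p = 0.0225) and 1416415_a_at by 0.26 ± 0.09 (adjusted p = 0.0471). The call of 1416415_a_at was lost on leaving out any 1 sample, and that of 1456032_x_at without dnBrg1 replicate 4 or wild type replicate 1 or 4. H2az1 was lower by 3 of 4 probe sets that can detect it, and the brightest of the 4, 1438091_a_at, was among those. However, 1416415_a_at was nearly as bright, with a mean of 12.99 over all arrays against 13.05. The 4 probe sets are also not independent, so their number does not settle the direction of the gene.

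**Figure D2:**
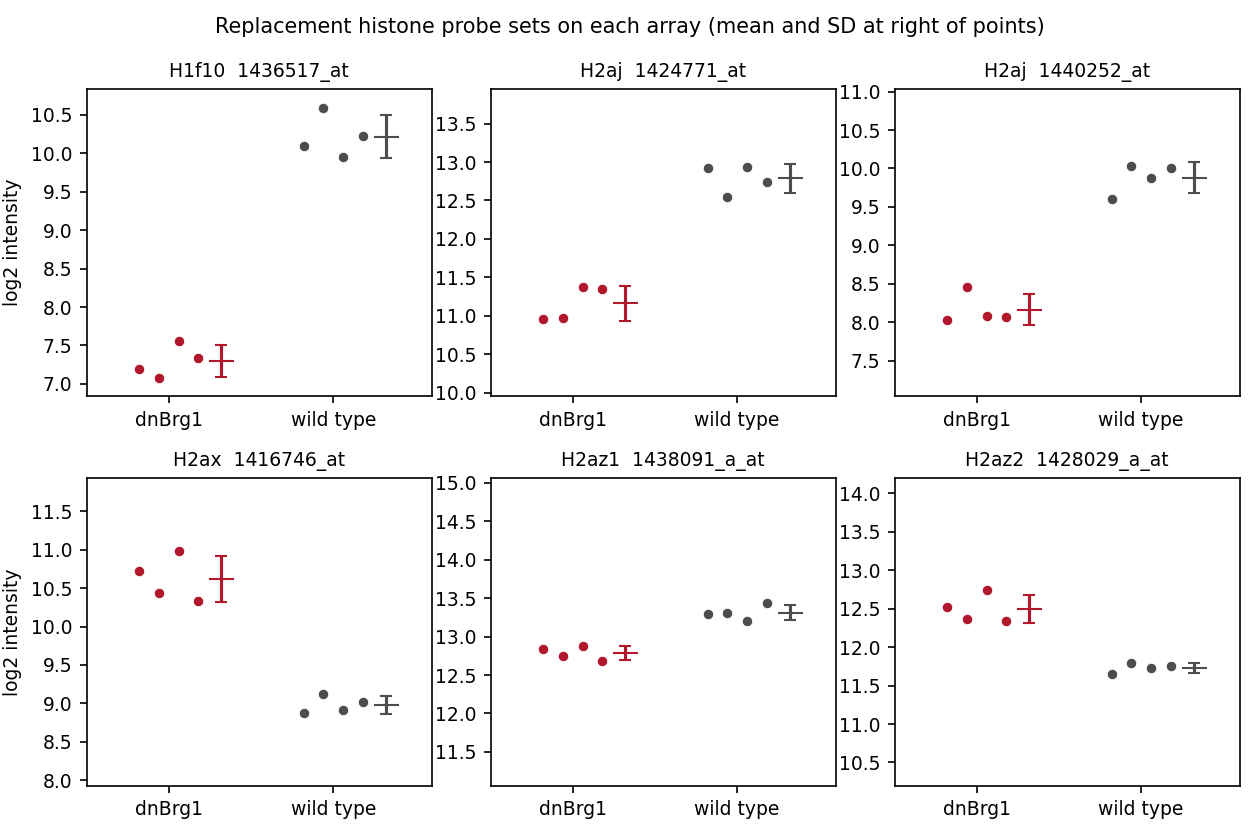
Log2 intensity of 6 probe sets of histone variant genes in each of 4 dnBrg1 (red) and 4 wild type (grey) lenses, with the group mean and SD to the right of the points; every panel spans 4 log2 units. H1f10 and both bright H2aj probe sets lie lower, H2ax higher, and H2az1 and H2az2 move in opposite directions by 0.52 and 0.76.

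The other genes of the linker H1 family gave mixed results. H1f10, like H2ax and H2az2, was read by 1 probe set, so agreement between probe sets could not be checked for these genes. H1f2 (H1.2), a replication-dependent linker histone of the chromosome 13 cluster, had 3 probe sets that gave different directions. Probe set 1436994_a_at had values of 10.60, 9.67, 10.31 and 9.74 in dnBrg1 lenses, against 10.92, 10.79, 10.79 and 11.31 in wild type lenses (-0.87 ± 0.22, adjusted p = 0.0114). Probe set 1416101_a_at was lower as well (-0.69 ± 0.20, adjusted p = 0.0234), but its groups overlapped and its call was lost in 10 of the 21 alternatives, among them those without dnBrg1 replicate 2 or 4 or wild type replicate 1 or 4. The dim probe set 1438204_at was higher, at 7.83, 7.11, 7.72 and 7.18 in dnBrg1 lenses, against 6.30, 6.56, 6.81 and 5.96 in wild type lenses (1.05 ± 0.22, 2.07-fold, adjusted p = 0.00464). With the described RNA fraction as a covariate, and with only dnBrg1 replicates 1 and 2, the calls of 1436994_a_at and 1416101_a_at were lost, as was that of the H2az1 probe set 1438092_x_at. Which transcript form each of the H1f2 probe sets detects was not tested.

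H1f4 (H1.4), of the same cluster, gave no usable contrast. Its probe set 1422398_at had values of 6.37, 6.33, 6.29 and 5.53 in dnBrg1 lenses, against 5.92, 7.30, 6.32 and 4.53 in wild type lenses. The wild type values span nearly 3 log2 units, and the 95% interval of the difference ran from -0.99 to 1.23 (adjusted p = 0.867). The testis linker histone H1f6 and the oocyte linker histone H1f8 were dim on every array, at 4.78 ± 0.12 and 4.99 ± 0.23 in dnBrg1 lenses and 5.04 ± 0.32 and 5.25 ± 0.14 in wild type lenses (SD, n = 4 each). Each differed by -0.26 and neither passed the test. The germline H2A genes H2al2a and H2ap were as dim and differed by -0.32 and -0.30, with adjusted p of 0.0959 and 0.151.

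Among core histone genes of the clusters with a probe set of their own, H3c7 was lower. Its probe set 1431231_at had values of 6.46, 6.32, 6.33 and 6.43 in dnBrg1 lenses, against 7.50, 6.98, 7.01 and 7.78 in wild type lenses (-0.93 ± 0.18, 1.91-fold lower, adjusted p = 0.00279). The second H3 gene, H3c4, was dim and differed by 0.08 (95% interval -0.36 to 0.53). H2bc18 was higher by 0.44 ± 0.15 (adjusted p = 0.0401) from a dim probe set with values of 4.84, 5.39, 4.95 and 5.07 in dnBrg1 lenses, against 4.36, 4.84, 4.56 and 4.69 in wild type lenses. The groups overlapped, and the call held in only 6 of 20 alternatives. It was lost without dnBrg1 replicate 2, 3 or 4 and without wild type replicate 1, 3 or 4. H2bc22 differed by 0.32 and missed the threshold (adjusted p = 0.108).

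H2ac19, an H2A gene of the chromosome 3 cluster, was bright and gave no call from either probe set. Probe set 1418366_at differed by 0.16 (95% interval -0.54 to 0.85) and 1418367_x_at by -0.41 (-0.85 to 0.02, adjusted p = 0.115). Wild type values of 1418366_at were 11.07, 9.74, 11.37 and 10.67, wider than the dnBrg1 values of 10.95, 10.60, 10.78 and 11.13. H2aw, an H2A gene on chromosome 11 outside the large clusters, differed by 0.25 (adjusted p = 0.249). Cluster genes share most of their sequence, so even a probe set annotated to 1 gene may take up signal of its neighbours.

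Probe sets that name several histone genes separated by histone class. All 4 that name the same 13 H4 genes were lower, 3 of 4 that name H3 genes of the clusters were lower, and 3 of 6 that name H2A or H2B genes, with H2bu2 and H2aw among them, were higher with none lower. In all, 7 of the 22 were higher, 8 lower and 7 not called, against the 19.8% and 21.0% given above. Of the 22, however, 18 were bright, and 53.5% of all bright probe sets were called in either direction. Probe sets for 1 class detect overlapping sets of genes and are not independent of one another. Replication-dependent mRNAs end in a stem-loop instead of a poly(A) tail. How well the amplification copied them, and which transcript form each probe set detects, was not tested. The brightest H4 probe set, 1422948_s_at, had values of 8.43, 8.31, 8.56 and 8.46 in dnBrg1 lenses, against 10.45, 10.41, 10.68 and 10.23 in wild type lenses, a difference of -2.00 ± 0.12 (4.01-fold lower, adjusted p = 9.65e-06). Values were tight in both groups, and among all histone probe sets only H1f10 fell further. The other H4 probe sets differed by -1.65, -1.48 and -0.87, with the -1.48 from a dim probe set, and no H4 probe set overlapped between groups. One of the 13 genes is H4f16, which neighbours H2aj on chromosome 6.

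The H3 probe set 1422155_at, which names 8 H3 genes, had values of 8.23, 7.48, 7.70 and 7.75 in dnBrg1 lenses, against 9.20, 9.33, 8.77 and 9.43 in wild type lenses (-1.39 ± 0.19, adjusted p = 0.000422). The other called H3 probe sets differed by -0.73 and -0.70, and the dim 1427864_at by -0.41, which missed the threshold (adjusted p = 0.0588). The lower H3 values were in the direction of H3c7 above, whose gene 2 of these probe sets also name besides 1422155_at. H3.3, the replacement H3 that is deposited outside replication, was read by 5 bright probe sets that name H3f3a and H3f3b with 4 related gene models. Of these, 1455725_a_at, 1423263_at and 1423262_a_at were higher by 0.80, 0.75 and 0.38, while 1420376_a_at and 1434127_a_at differed by 0.17 and 0.06 and were not called.

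Among H2A and H2B probe sets of the clusters, 1449482_at for H2bu2 and a related pseudogene had values of 11.21, 10.90, 11.17 and 11.17 in dnBrg1 lenses, against 10.33, 10.26, 10.30 and 10.20 in wild type lenses (0.84 ± 0.10, adjusted p = 0.000224). Probe set 1452540_a_at, which names 11 genes, most of them H2B, was higher by 0.59 ± 0.13 (adjusted p = 0.00543). Probe set 1438009_at, which names 10 H2A genes, was higher by 1.44 ± 0.46 (adjusted p = 0.0319), with values of 12.71, 12.56, 12.52 and 12.63 in dnBrg1 lenses, against 11.43, 9.68, 12.41 and 11.14 in wild type lenses. Its wild type values spread over nearly 3 log2 units while the dnBrg1 values lay close together. The call was lost with the described RNA fraction as a covariate and on leaving out any of the 4 dnBrg1 samples or wild type replicate 4, and the difference ran from 0.95 to 1.86 over all single samples left out. A dim probe set that names 11 germline H2al1 genes, 1419187_at, differed by 0.16 and was not called.

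**Figure D3:**
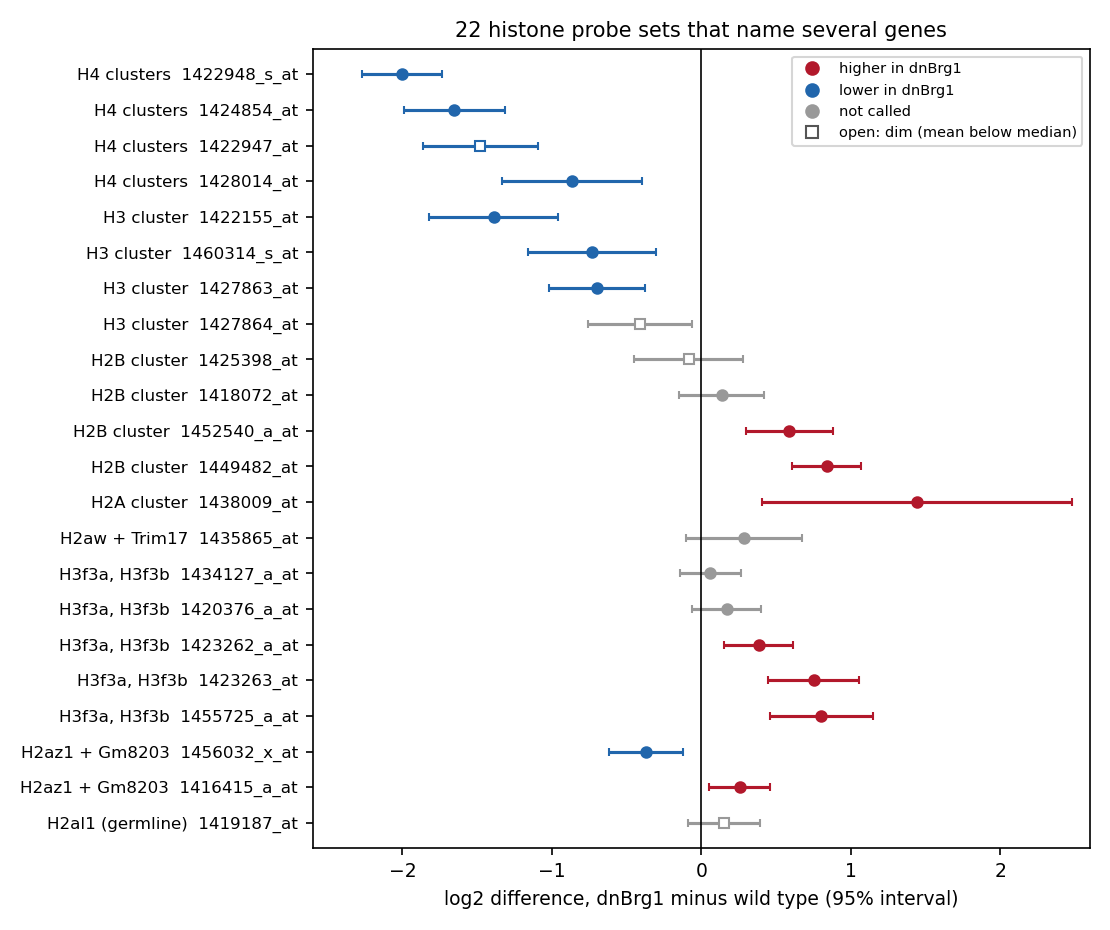
Difference (log2, dnBrg1 minus wild type) with its 95% interval for each of 22 histone probe sets that name several genes, grouped by class; colors and symbols mark the call and brightness, with open squares for dim probe sets. H4 and H3 cluster probe sets lie at or below -0.41, called H2A cluster, H2B and H3.3 probe sets lie between 0.38 and 1.44, and the pair that names H2az1 with Gm8203 lies at -0.37 and 0.26.

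Control probe sets also differed between the groups, so genotype and this difference between arrays cannot be told apart in the comparisons above. The arrays carry probe sets for the 3′ and the 5′ end of Gapdh and β-actin, whose difference rises when less of the 5′ end was copied. For Gapdh the 3′ minus 5′ difference was 0.67 ± 0.02 in dnBrg1 lenses and 1.59 ± 0.58 in wild type lenses, and for β-actin it was 0.58 ± 0.06 in dnBrg1 lenses and 2.50 ± 0.48 in wild type lenses (log2, SD, n = 4 each). No value overlapped, and for each control the two-sided exact permutation test gave p = 0.0286, the smallest that 70 assignments allow. On leaving out any 1 dnBrg1 sample it was 0.0571 for Gapdh and 0.0286 for β-actin. The mean of both was 0.65, 0.65, 0.59 and 0.60 in dnBrg1 lenses, against 1.90, 2.66, 1.43 and 2.20 in wild type lenses.

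Within wild type lenses some histone probe sets followed this order. H2A probe set 1438009_at had 12.41, 11.43, 11.14 and 9.68 as the control difference went up from 1.43 to 2.66, and H3.3 probe set 1423263_at had 12.78, 12.52, 12.31 and 12.19 in the same order. H1f10 ran the opposite way, with 9.95, 10.10, 10.23 and 10.60, and so was higher where the control difference was larger. Between the groups, too, H1f10 was higher in wild type lenses, which had the larger control difference. H4 probe set 1422948_s_at did not follow the order, with 10.68, 10.45, 10.23 and 10.41. The order is given for these probe sets only. With 4 samples no correlation was computed, and the part of the control difference in the histone values was not tested.

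**Figure D4:**
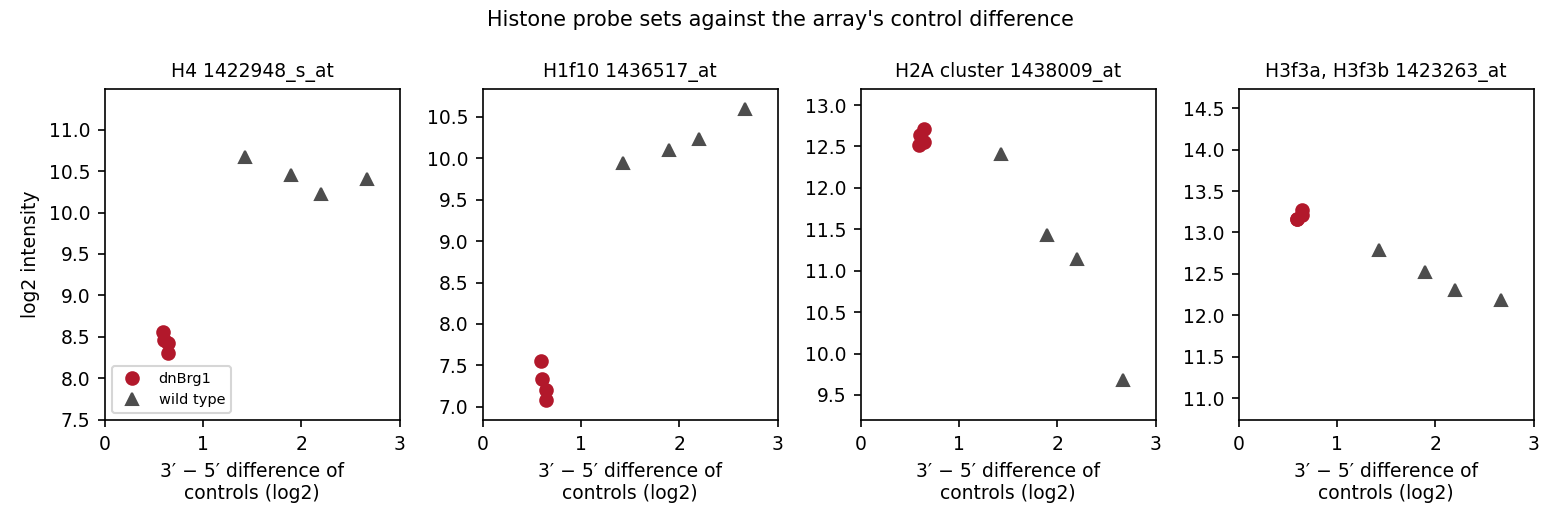
Log2 intensity of 4 histone probe sets in each lens against the control difference (3′ minus 5′, mean of Gapdh and β-actin) on the same array (log2), with dnBrg1 lenses as red circles and wild type lenses as grey triangles. dnBrg1 lenses lie between 0.59 and 0.65 on the horizontal axis and wild type lenses between 1.43 and 2.66, so the groups share no value of it.

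With the control difference as a covariate, a fit that must extrapolate because the groups do not overlap in it, H1f10 kept a difference of -2.22 ± 0.30 (adjusted p = 0.0131), H2aj differences of -2.13 and -1.42 (adjusted p = 0.0131 and 0.044) and H2ax one of 1.89 ± 0.36 (adjusted p = 0.0273). The H4 probe sets 1422948_s_at and 1428014_at also stayed called, at -2.36 and -1.78 (adjusted p = 0.0115 and 0.0419). The calls of H2az1, H2az2, H1f2, H3c7, H2bc18, the other H4 probe sets, the H3 and H3.3 probe sets and the H2B probe sets were lost in this fit, with H2az2 at 0.85 (adjusted p = 0.1) and H3.3 probe set 1455725_a_at at -0.05 (adjusted p = 0.917). H2A probe set 1438009_at turned to -1.59 (adjusted p = 0.0282), and the H2ac19 probe sets 1418366_at and 1418367_x_at came to -1.73 and -1.44 (adjusted p = 0.0303 and 0.0312) and H1f6 to -1.12 (adjusted p = 0.03). H1f10, both bright H2aj probe sets and H2ax were called in all 21 alternatives that were run.

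Genes that handle histones were given as lists, on the brightest probe set of each. Of 28 histone chaperones and importers, 5 were higher and 9 lower, against the 17.5% and 23.3% of all genes, with a median of -0.07 against -0.11 for all genes. Of the 28, 26 were bright and 50% were called, against 53.5% of all bright probe sets. Mcm2, a subunit of the replicative helicase that also holds H3 and H4, had values of 10.79, 10.57, 10.86 and 10.54 in dnBrg1 lenses, against 12.02, 11.86, 11.66 and 11.96 in wild type lenses (-1.19 ± 0.12, adjusted p = 9.43e-05). The H3 and H4 importer Ipo4 differed by -1.03, the H3 and H4 chaperone Asf1b by -0.83 and the H3 and H4 co-chaperone Dnajc9 by -0.72, and the largest increase in the list, named after its values were seen, was that of Daxx, a chaperone of H3.3, at 0.71. These 4 decreases and Daxx passed the test but none of them with the control covariate. There Mcm2 kept most of its difference, at -0.99 (adjusted p = 0.079), Ipo4, Dnajc9 and Asf1b came to -0.15, -0.08 and 0.02, and Daxx turned to -0.27 (adjusted p = 0.648). Further H3 and H4 chaperones of the list moved both ways without the covariate. Chaf1b, Hira and Asf1a were called higher, at 0.63, 0.38 and 0.31 (adjusted p = 0.00975, 0.0219 and 0.0149). Nasp was called lower, at -0.62 (adjusted p = 0.00232). With the control covariate none of these was called.

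Of 17 genes that act in transcription and processing of histone mRNA, 3 were higher and 8 lower, against 17.5% and 23.3% of all genes, with a median of -0.26 against -0.11 for all genes. All 17 were bright and 64.7% were called, against 53.5% of all bright probe sets. Upf1, a helicase needed for decay of histone mRNA, had values of 11.48, 11.56, 11.51 and 11.60 in dnBrg1 lenses, against 12.93, 12.94, 12.68 and 12.99 in wild type lenses (-1.35 ± 0.10, adjusted p = 2.36e-05). Lsm10, a protein of the U7 particle that cleaves the histone mRNA end, was higher, at 9.05, 8.95, 9.10 and 8.97 in dnBrg1 lenses, against 7.59, 8.11, 7.43 and 7.61 in wild type lenses (1.33 ± 0.15, adjusted p = 0.000131). Hinfp, a transcription factor of H4 genes, differed by -0.94 (adjusted p = 0.00308) and Ncbp2, of the cap-binding complex, by 0.72 (adjusted p = 0.00538). Upf1 and Lsm10 stayed called with the control covariate, at -1.06 and 2.07. Hinfp and Ncbp2 did not, with Hinfp at 0.09 and Ncbp2 at 0.70 (adjusted p = 0.855 and 0.32).

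Of 22 S phase and proliferation genes, 4 were higher and 6 lower, close to the 17.5% and 23.3% of all genes, with a median of -0.10 against -0.11. Of the 22, 21 were bright and 45.5% were called, against 53.5% of all bright probe sets. The licensing factor Cdt1 differed by -1.27 ± 0.13 (adjusted p = 1e-04) and Mcm2 by -1.19, while the proliferation marker Mki67 differed by 1.09 ± 0.16 (adjusted p = 0.000583) and Rrm1, a subunit of ribonucleotide reductase, by 0.97 ± 0.14 (adjusted p = 0.000476). The genes that mark S phase thus did not move one way. Of 3 histone variants that the naming rule leaves out, Macroh2a1 differed by -0.56 ± 0.11 (adjusted p = 0.00403) and the centromere variant Cenpa by -0.60 ± 0.17 (adjusted p = 0.0188), while Macroh2a2 differed by 0.01 and was not called. With the control covariate no gene named in this paragraph stayed called: Cdt1 came to -1.02 (adjusted p = 0.0899), Mcm2 to -0.99, Mki67 to 0.81 (0.24), Rrm1 to 0.98 (0.122), Macroh2a1 to -0.42 (0.38) and Cenpa to -0.52 (0.502). The Cenpa call was also lost on leaving out wild type replicate 4 or dnBrg1 replicate 1, 2 or 4.

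Smarca4, the gene of Brg1, was higher by 2.35 in dnBrg1 lenses on probe set 1426805_at (adjusted p = 4.81e-05) and differed by -0.24 on 1426804_at (adjusted p = 0.116). With the control covariate 1426805_at came to 1.26 and was no longer called (adjusted p = 0.0661). Which of these the transgene's cDNA carries was not tested. Lens identity was clear, with crystallin genes near the top of the scale in both groups (Cryaa at 14.31 in dnBrg1 lenses and 14.27 in wild type lenses). Of 13 lens genes 3 were higher and 2 lower, against 17.5% and 23.3% of all genes. All 13 were bright and 38.5% were called, against 53.5% of all bright probe sets. Bfsp1, a fiber cytoskeleton gene, had the largest difference in this list at 1.54, followed by Pax6 at 0.58, Prox1 at 0.53 and Cryga at -0.36. Array medians lay between 196.94 and 209.09 on the linear scale.

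Markers of other cell types were read against the same 17.5% higher and 23.3% lower over all genes. Bright genes were 4 of 9 in the macrophage list, 9 of 9 in that of retina and neuron and 6 of 8 in that of endothelium. Of all bright probe sets 53.5% were called in either direction. In the macrophage list 3 of 9 were higher and 2 lower, with C1qb at -2.15, Csf1r at -2.13, Lyz2 at 0.90 and Cx3cr1 at 0.71. Its summed intensity was 2434 to 4923 in dnBrg1 lenses, against 8190 to 9989 in wild type lenses. This sum rests mostly on C1qb and Csf1r, at 12.03 and 11.86 in wild type lenses. The next brightest there, Lyz2, was at 7.79. The sum thus follows the 2 lower genes, and the 3 higher ones hardly show in it. In the retina and neuron list 1 of 9 was higher and 5 lower, with a summed intensity of 11144 to 15919 in dnBrg1 lenses, against 13898 to 20104 in wild type lenses, and with Elavl3 at -1.99, Atoh7 and Tubb3 at -1.08 and 1.08, and Elavl4 at -0.92. In the endothelium list 4 of 8 were higher and 2 lower, with a summed intensity of 4046 to 4764 in dnBrg1 lenses, against 3990 to 4345 in wild type lenses, and with Emcn at 1.63, Esam at 1.35, Cdh5 at -0.82 and Tie1 at 0.77. None of 4 erythroid or 7 mesenchyme genes was called, and their summed intensities overlapped between groups. Both sums spread widely within dnBrg1 lenses, from 2631 to 13605 for erythroid and from 3815 to 12445 for mesenchyme genes. In wild type lenses they ran from 5125 to 8941 and from 4359 to 7533. Col1a1 was at 12.09, 8.22, 8.83 and 11.83 in dnBrg1 replicates 1 to 4 and Dcn at 8.63, 5.65, 6.03 and 9.05, while Pdgfra stayed between 11.30 and 11.55. The missing calls thus do not show that samples were alike in these genes. The adult globin gene Hba-a1 was at 3.15 in dnBrg1 lenses and 3.20 in wild type lenses, near the bottom of the scale. With the control covariate C1qb stayed called (adjusted p = 0.0477), and no other marker named here for macrophage, retina and neuron, or endothelium did. The part of these cell types in the histone values was not tested.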

How the data were processed

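RNA was profiled on 8 Affymetrix Mouse Genome arrays, 4 from dnBrg1 and 4 from wild type lenses, grouped by the sample titles. The authors deposited linear intensities from RMA (version not given in the sources used here). RMA removes background, equalizes the distributions of the arrays and reduces each probe set to 1 value, so that it would hide a change common to most transcripts. Intensities were taken to log2 here. Of 22690 rows, 64 array controls were set aside. All 22626 others entered 1 fit of dnBrg1 minus wild type in limma (version 3.58.1, under R 4.3.3) with moderated variances, no covariate and no filter. Calls rest on p-values adjusted by Benjamini-Hochberg over all of them, under 0.05. For several probe sets of a gene, all were given, and counts by gene used the brightest. No detection calls were used. Precision is limited by having 4 arrays a group. The fit was tested on simulated data.

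The 3′ minus 5′ differences of controls were compared by exact permutation over 70 assignments. Promoters and gene names came from RefSeq tables, and 691 probe sets name several genes and 1555 none. Alternatives covered scaling, an added constant of 16, dim probe sets, the variance model, covariates, the replicate block, the methods' t-test, a threshold of 0.01 and samples left out. The replicate numbers were not taken to pair the samples.

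The members and lists were chosen with earlier results of these data known. Named with values were H1f10, H2aj, H2ax and every replacement variant with all probe sets, up to 10 largest increases and 10 largest decreases among called members, members with several probe sets, Smarca4, and up to 4 called genes with the largest change from each list.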

Additional observations from a re-analysis of the deposited data

Results flagged for a closer look

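In 4 of the 50 groups of 4 samples that were examined, 1 sample stood apart from the other 3 by more of the group's range than Dixon's critical value for 4 samples allows, and chance marks about 1 group in 20. H1f4 probe set 1422398_at was at 5.53 in dnBrg1 replicate 4, while the other dnBrg1 lenses were at 6.29 to 6.37. H2aj probe set 1440252_at was at 8.46 in dnBrg1 replicate 2, while the others were at 8.03 to 8.08. H2bc22 probe set 1427762_x_at was at 7.37 in dnBrg1 replicate 2, with the others at 7.61 to 7.62. H2az1 probe set 1438092_x_at was at 12.89 in wild type replicate 3, with the others at 12.996 to 13.015.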

How the results depend on the processing

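H1f10, both bright H2aj probe sets and H2ax were called in the same direction under all 21 alternatives run. Over the 4 higher and 8 lower probe sets, the counts were 2 higher with bright probe sets only, 5 lower with the described RNA fraction as a covariate, 5 lower with only dnBrg1 replicates 1 and 2, and 1 higher with the control difference between 3′ and 5′ ends as covariate (genes called higher 1). Leaving out 1 sample at a time gave 3 to 4 higher and 7 to 9 lower probe sets, 2 to 3 and 5 to 6 genes, and 7700 to 10172 calls over all probe sets. All calls came to 5640 with only dnBrg1 replicates 1 and 2, 1442 with the control covariate and 6031 at an adjusted p under 0.01, against 9229. H2ac19 probe set 1418366_at turned to -1.73 with the control covariate. The methods' t-test called 4 higher and 8 lower unadjusted, and 3 and 7 after Benjamini-Hochberg. The study also required a call by significance analysis of microarrays, which was not run here. Of 472 member values under alternatives, 35 lost a call and 5 gained one in the same direction. The sign was opposite in 10, all from probe sets not called without the alternative: besides H2ac19 above, with the control covariate H2aw came to -0.62, H2al2a to 0.02 and H3c4 to -0.06; with the RNA fraction covariate, and with only dnBrg1 replicates 1 and 2, H3c4 came to -0.09; and H2ac19 1418366_at came to -0.17 without wild type replicate 2, H1f4 to -0.38 without wild type replicate 4, and H3c4 to -0.05 without dnBrg1 replicate 4 and -0.10 without wild type replicate 4. The Gapdh control difference ran from -1.13 to -0.67 with 1 sample left out, with an exact p of 0.0571 without any 1 dnBrg1 sample and 0.0286 without any 1 wild type sample, and that of β-actin from -2.14 to -1.77 with an exact p of 0.0286 throughout. The cause of these changes was not tested. Deviations from the group mean correlated at -0.19, -0.01, -0.05 and 0.16 between samples with the same replicate number. These values cannot settle whether samples were paired by litter, which the labels do not give. With the replicate block 4 higher and 7 lower probe sets and 7963 of all were called.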
